A study of Mus musculus with 6 samples.

Results

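The proteasome subunit genes were taken as the annotated genes whose symbol is Psm followed by a letter from a to g and a number, which gave 48 of the 55471 gene rows in the count tables. They lie on 16 chromosomes, and 47 of them received an adjusted p-value. The rule used only names, although the set was chosen with earlier results of these data known. The tissue was the rostral-most telencephalic primordium of mouse embryos at E11.5, in 3 control and 3 Rx-Dicer samples profiled by RNA sequencing of total RNA. Control embryos were DicerF/F, with both Dicer1 alleles floxed and no Cre (the genotype label reads WT), and Rx-Dicer embryos were RxCre-Dicer F/F, in which Cre driven by Rx regulatory sequence deletes part of the same floxed gene. Both groups thus carry the floxed alleles, and the study describes the controls as littermates. Rx3-Cre mice were kept on a CD1 background and the floxed line on C57BL/6. Cre acts in cells with a history of Rx activity, and the dissected tissue also holds cells without it. Whether a sample was 1 embryo or a pool is not given in the sources used here.

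The 26S proteasome degrades proteins tagged with ubiquitin. Its barrel, the 20S core, is built from rings of alpha subunits (Psma genes), which gate the entrance, and rings of beta subunits (Psmb genes), some of which carry the cutting sites inside. The 19S regulatory particle caps the barrel: a base with ATPases (Psmc genes) unfolds the substrate, and a lid (Psmd genes) removes ubiquitin. Dedicated chaperones (Psmg genes for the core, Psmd5, Psmd9 and Psmd10 for the base) assist assembly, and Psme and Psmf1 proteins are alternative caps and a regulator. In dividing progenitors the proteasome turns over cyclins and other short-lived regulators.

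The 6 libraries held 34471501 to 48373468 counts over genes, and 3 counts corresponded to 0.062 to 0.087 CPM (counts scaled to library size). Dicer1 (chr12:104687742-104751952 in GRCm38, minus strand), the targeted gene, had normalised counts of 6355, 7070.2 and 6270.4 in the controls and 4777, 7002 and 4644 in the Rx-Dicer libraries. Rx-Dicer 2 lay within the control range and the other two Rx-Dicer libraries below it. The log2 fold change was -0.26 (SE 0.17, adjusted p = 0.567, DESeq2), and without Rx-Dicer 2 it was -0.47 (adjusted p = 8.81e-04, with a range over all settings of 8.81e-04 to 0.945). A gene-level count also takes reads from the exons that recombination leaves, so it tests the labels only in part. Rx-Dicer 2 also had the highest share of reads outside annotated features, 10.7% against 6.79 to 8.32% in the other libraries. All 10 telencephalic neuroepithelium markers were detected in every library; Six3 was called higher, and Pax6 and Fabp7 lower, in Rx-Dicer. Of the young neuron (8), endothelial (10), erythroid (10), head mesenchyme (10) and surface and nasal epithelium (6) markers, only Foxd1 of the head mesenchyme was called, higher in Rx-Dicer, by DESeq2. Libraries still differed in some of these lists. Summed normalised counts of the erythroid markers were 1013440 in control 2 and 1011530 in Rx-Dicer 3, and 359080 to 476676 in the other libraries. Those of surface and nasal epithelium were 536 to 2828 in the controls and 780 to 1481 in Rx-Dicer. Fewer cells of a type and less RNA per cell cannot be told apart in these bulk samples.

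The study concerned microRNAs of the let-7 family, so the sequences through which these could pair with proteasome mRNAs were searched. A microRNA pairs with a 3′ UTR mainly through its seed. The mature sequences, from RefSeq, are shown with the seed, bases 2 to 8, in capitals, and the 8 family members examined shared it. Let-7a and let-7g are given as examples, which differ only outside it.
let-7a-5p: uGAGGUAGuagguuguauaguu
let-7g-5p: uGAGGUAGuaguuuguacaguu
The matching words in a 3′ UTR are CTACCTCA for 8 bases, CTACCTC and TACCTCA for 7 bases, and TACCTC for 6 bases. None of the 48 members held a word of 7 or 8 bases in the 3′ UTR of its representative transcript (GENCODE M21), where 3.42% of the 13948 tested coding genes held the word of 8 bases, and 9.67% and 10.5% those of 7. The 6-base word was present in 3 members, Psme3, Psmb5 and Psmd2, or 6.25% against 24.9%. The sites are shown in capitals with their flanks (GRCm38.p6).
Psme3, chr11:101322027-101322052, plus strand: tgtgacgtgttTACCTCttttttcag
Psmb5, chr14:54614119-54614140, minus strand: ataaataatagTACCTCtttca
Psmd2, chr16:20663342-20663367, plus strand: gggggaattgtTACCTCctgttgttt
The 3′ UTRs themselves were short. Their median length was 225 bases over the 48 members and 1061.5 bases over the tested coding genes, and 28 members had fewer than 300 bases. A longer UTR has more room for a word, and the counts of words were not adjusted for length. A match is a description and not evidence of a working site.

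Promoter sequences from RefSeq (250 bases before to 50 after the start, GRCm38.p6) matched 40 of the 48 members by symbol. They were searched on both strands for short motifs of factors with known roles at such genes or in housekeeping promoters. The ETS motif CCGGAAG was found in 14 of the 40 members (35%) and in 18.5% of the 11102 tested genes with a promoter. By subcomplex, 9 of 14 genes of the 19S particle held it and 1 of 11 genes of the core. That core gene, Psma6, has more than 1 promoter entry, and its matches lie in an entry inside the gene, downstream of the annotated gene start at position 55384222 of chromosome 12. Examples are shown with the motif, or its reverse complement CTTCCGG, in capitals, first for 19S genes and last for the core gene.
Psmc1, chr12:100110163-100110192, plus strand: tggtggatgcaCTTCCGGcggtggcgattt
Psmd12, chr11:107479500-107479529, plus strand: tgagcgggcgaCTTCCGGtgcgagtgacga
Psmd13, chr7:140882377-140882406, plus strand: cgcccgcggtgCCGGAAGtgagcgagcact
Psma6, chr12:55398812-55398841, plus strand: ccgccggtgctCCGGAAGcagtagccataa
The core of the antioxidant response element, TGACNNNGC, is a word bound by the Nfe2l1 and Nfe2l2 factors that induce proteasome genes. It was in 6 of 40 members (15%) and 16.7% of tested genes. The matches in 2 genes of catalytic subunits are shown.
Psmb5, chr14:54618023-54618052, minus strand: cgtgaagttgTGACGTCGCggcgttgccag
Psmb6, chr11:70525338-70525367, plus strand: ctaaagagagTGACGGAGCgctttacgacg
The interferon regulatory factor word was in 5 members (12.5% against 3.44%), Psmb3, Psmd4, Psmd9, Psme1 and Psmg4. It is shown for Psmg4, whose values are described further on.
Psmg4, chr13:34162969-34162998, plus strand: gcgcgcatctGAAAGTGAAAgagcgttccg
The CCAAT box CCAAT was in 14 members (35% against 43.2%), the SP1 word GGGCGG in 23 (57.5% against 68.8%), the YY1 word AAGATGGC in 3 (7.5% against 4.79%) and the NRF1 palindrome in 2 (5% against 2.18%). Matches of different motifs overlapped in 2 of the members, Psmd9 and Psme4. No factor binding was measured here, and these counts carry no test.

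To ask whether loss of Dicer changed proteasome gene expression, control and Rx-Dicer libraries were compared by DESeq2 across all genes. A gene was called where the adjusted p was below 0.05 and the log2 fold change was beyond 0.32 in either direction, the size that the study used. None of the 47 tested members was called, where 2.93% of all 17128 genes tested were (1.75% higher and 1.18% lower). The smallest adjusted p of a member was 0.274, so that 0 were called at an adjusted p of 0.1 either (4.32% of all genes). At an unadjusted p under 0.05, 1 member was higher (6.96% of all genes) and 2 were lower (6.11%). These counts depended on single libraries. The lower count was 5 without control 1, 12 without Rx-Dicer 1 and 6 without Rx-Dicer 3. It was 0 without control 2, control 3 or Rx-Dicer 2, and the higher count stayed at 1 only without control 2 or Rx-Dicer 2. The background moved too. Genes under 0.05 in either direction numbered 2239 of 17128 with every library. They numbered 2401 of 16899 without control 1, 2388 of 15080 without Rx-Dicer 1 and 1982 of 14039 without Rx-Dicer 3. edgeR's quasi-likelihood test likewise called 0 members, but it called only 8 genes in all (0.0446%). At an unadjusted p under 0.05 it had 1 higher (7.04% of all genes) and 2 lower (5.84%).

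**Figure D1:**
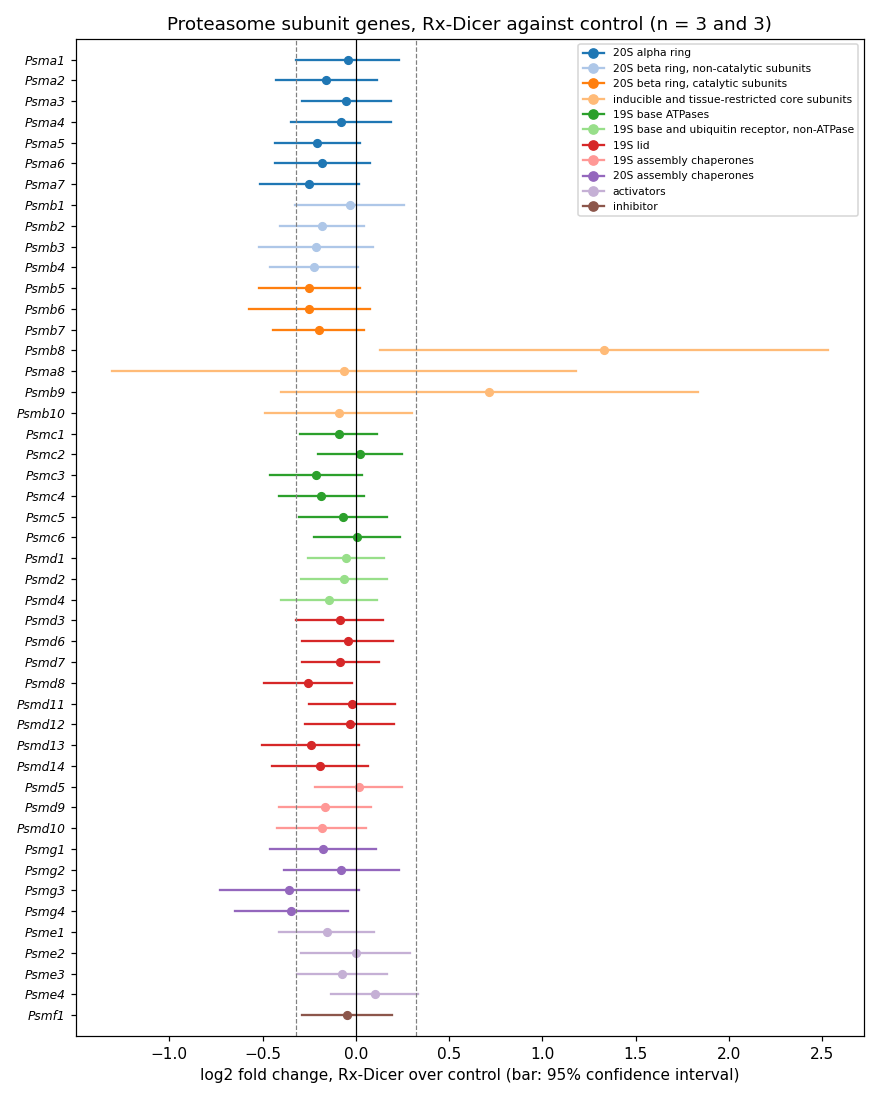
Log2 fold change of each of the 47 tested proteasome subunit genes, Rx-Dicer over control (horizontal axis; points, DESeq2 estimates; bars, 95% confidence intervals; dashed lines, 0.32 either side of 0). Of the points, 41 lie left of 0, most within the dashed lines, while Psmb8 and Psmb9 lie far to the right with wide intervals.

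The members were nevertheless mostly on the lower side. Of 47, 41 had a log2 fold change below 0, against 50.1% of all genes tested, and the median was -0.09 against -0.00. Leaving aside the 5 inducible and tissue-restricted core subunits, the 43 broadly expressed members ran from -0.36 to 0.10 with a median of -0.14. Their standard errors were 0.10 to 0.19. No 95% confidence interval of these 43 reached a 2-fold change in either direction, 25 reached a fall of 0.32 and 1 a rise of 0.32. Small falls in single genes were therefore not resolved with 3 libraries a group. Members share their libraries and are not independent, so the count of genes below 0 is a description.

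On the scale of DESeq2 normalised counts, 1 library lay furthest below the controls. The mean log2 level of the 43 genes relative to the control mean was -0.08 in Rx-Dicer 1, -0.28 in Rx-Dicer 2 and -0.04 in Rx-Dicer 3, and it was -0.04, 0.06 and -0.02 in the controls. Rx-Dicer 2 was the lowest of the 6 libraries for 33 of the 43 genes, against 23% of all genes tested. The median log2 fold change over all tested members, -0.09 with every library, was -0.06 without Rx-Dicer 2, -0.16 without Rx-Dicer 1 and -0.18 without Rx-Dicer 3. On the TPM scale, which divides by transcript length and depends on all other genes of a library, the members summed to 7977, 8501 and 8400.5 in the controls and 8271, 7457 and 7473 in the Rx-Dicer libraries. There Rx-Dicer 2 and 3 were about equally low, so the place of Rx-Dicer 2 depended on the scale. Groups that did not overlap were found for 9 members on the lower side (19.1% of 47, against 10.7% of all genes) and for 1 on the higher side (8.55% of all genes). With 1 library fewer, the lower count was 18 without control 1, 19 without Rx-Dicer 1 and 20 without Rx-Dicer 3, and 9 or 10 without the others. Fewer libraries must be apart in such a comparison, so a rise in that count follows in part from its construction. The 10.7% belongs to the fit with every library and is no reference for these counts.

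The constitutive 20S core showed this pattern in every gene. All 14 genes (Psma1 to Psma7 and Psmb1 to Psmb7) had a log2 fold change below 0, with a median of -0.19, and all 14 were lowest in Rx-Dicer 2. The mean over the 14 was -0.07, -0.40 and -0.05 in the 3 Rx-Dicer libraries. In 6 of the 14 (42.9%, against 10.7% of all genes), all Rx-Dicer values lay below all control values. At an unadjusted p under 0.05, 0 were lower (6.11% of all genes).

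Among the catalytic subunits, Psmb5 provides the chymotrypsin-like site. Its normalised counts were 3336, 3732 and 3301 in the controls and 3157, 2451 and 3114 in the Rx-Dicer libraries. All Rx-Dicer values lay below the controls, with Rx-Dicer 2 apart from the rest, and the log2 fold change was -0.25 (SE 0.14, adjusted p = 0.457). Psmb6, which provides the caspase-like site, had 9024, 10991 and 10306 in the controls and 10307, 6694 and 8516 in the Rx-Dicer libraries, a range in which the groups overlapped through Rx-Dicer 1. Its log2 fold change was -0.25 (SE 0.16, adjusted p = 0.590). Psmb7, with the trypsin-like site, had 11213, 12268 and 11921 in the controls and 10746, 8946 and 11159.5 in the Rx-Dicer libraries. The groups did not overlap, although Rx-Dicer 3 fell just short of control 1, and the log2 fold change was -0.20 (SE 0.12, adjusted p = 0.553). The 3 catalytic genes had the lowest mean of the core rings in Rx-Dicer 2, -0.49.

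Of the beta subunits without a cutting site, Psmb4 had 9747, 10299.8 and 10339 in the controls and 9376, 7636 and 8971 in the Rx-Dicer libraries. The groups lay apart, and the log2 fold change was -0.23 (SE 0.12, adjusted p = 0.420). In the alpha ring, Psma7 had 10343, 10927 and 9762 in the controls and 9472, 7308 and 9318 in the Rx-Dicer libraries, again with the groups apart. Its log2 fold change of -0.25 (SE 0.13, adjusted p = 0.430) was the lowest of that ring. The other members of the alpha and beta rings ran from -0.21 to -0.03, the smallest adjusted p among them being that of Psma5, 0.472.

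The 19S particle departed less from the controls. Of its 17 genes, 15 were below 0 with a median of -0.08, and 10 were lowest in Rx-Dicer 2. Groups lay apart on the lower side for 1 (5.88%, against 10.7% of all genes). Its mean was -0.09, -0.19 and -0.03 in Rx-Dicer 1, 2 and 3. The core mean minus the 19S mean was -0.21 in Rx-Dicer 2 and between -0.02 and 0.02 in the other 5 libraries, so on this scale the gap between subcomplexes was seen in 1 library, and it was not tested between groups.

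**Figure D2:**
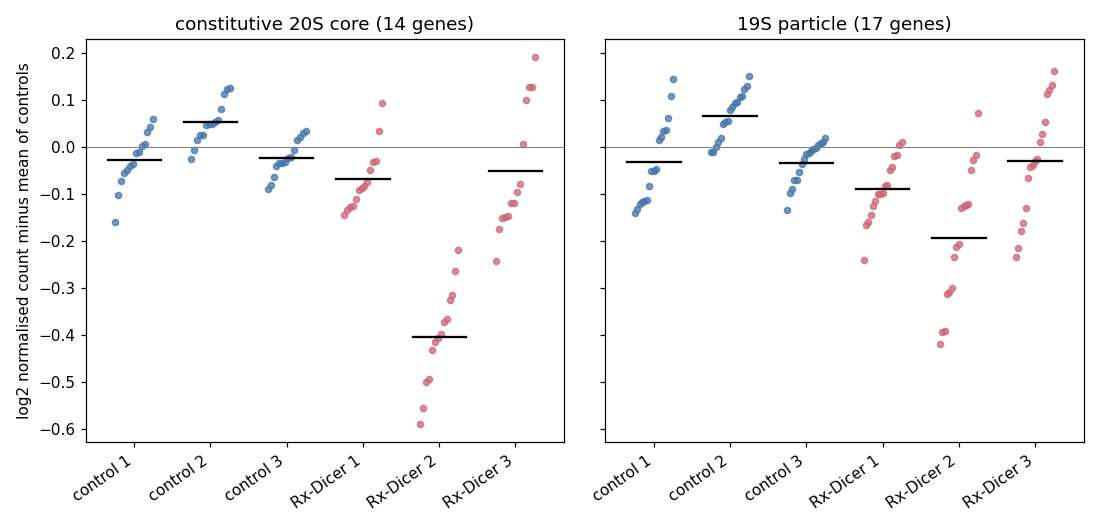
Log2 normalised count of each gene minus the mean of its 3 controls (vertical axis) in each library, for the 14 genes of the constitutive 20S core (left) and the 17 of the 19S particle (right); bars mark the mean. In Rx-Dicer 2 the whole core sits below the controls (mean -0.40), and the 19S genes spread around -0.19.

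Psmd8, a lid subunit, was 1 of the 2 members with a lower unadjusted p under 0.05. It had 6405, 7394 and 7014 in the controls and 6198, 5268 and 5963 in the Rx-Dicer libraries, with all Rx-Dicer values below the lowest control. The log2 fold change was -0.26 (SE 0.12, unadjusted p = 0.0344, adjusted p = 0.316). Psmd7, the partner of the lid deubiquitinase Psmd14, had 7064, 6989.8 and 6916 in the controls and 6322, 6417 and 7042 in the Rx-Dicer libraries, in which Rx-Dicer 3 reached the control range. Its log2 fold change was -0.08 (SE 0.11, adjusted p = 0.866). In the base, the scaffold subunit Psmd2 had 18396, 22510.3 and 20154 in the controls and 20053, 18597 and 19760.0 in the Rx-Dicer libraries, all overlapping the controls. It had a log2 fold change of -0.06 (SE 0.12, adjusted p = 0.928).

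The ATPase Psmc3 had 11405, 13340.0 and 12457 in the controls and 11566, 9432 and 11068 in the Rx-Dicer libraries, with Rx-Dicer 1 inside the control range. Its log2 fold change was -0.21 (SE 0.13, adjusted p = 0.505). Psmc2 had 6577, 6052 and 5703 in the controls and 6022, 5983 and 6632 in the Rx-Dicer libraries and was 1 of the 2 ATPase genes above 0, at 0.02 (SE 0.12, adjusted p = 0.980). The 6 ATPase genes, whose products form 1 ring, thus ran from -0.21 to 0.02.

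Assembly chaperones of the core included the 2 members with the largest falls in the fitted value. Psmg4 (chr13:34162964-34178173 in GRCm38, plus strand) had 1005, 1245 and 1149.8 in the controls and 970.0, 759 and 946 in the Rx-Dicer libraries. All Rx-Dicer values were below all controls, and the log2 fold change was -0.35 (SE 0.16, unadjusted p = 0.0260, adjusted p = 0.274). Psmg3, its partner in the complex that guides alpha ring assembly, had 348, 411 and 392 in the controls and 354, 289 and 256 in the Rx-Dicer libraries, with Rx-Dicer 1 inside the control range. The log2 fold change was -0.36 (SE 0.19, adjusted p = 0.415). The chaperone pair Psmg1 and Psmg2 stood at -0.18 and -0.08. For the 19S base, the chaperone Psmd5 had 2938, 3273 and 3351 in the controls and 3289, 3005 and 3370.0 in the Rx-Dicer libraries and a log2 fold change of 0.02 (SE 0.12, adjusted p = 0.987), while Psmd9 and Psmd10 stood at -0.17 and -0.18.

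Psmb8, Psmb9 and Psmb10 replace the constitutive catalytic subunits in the immunoproteasome, which interferon induces and which immune cells carry without induction. Psmb8 (chr17:34197721-34201454 in GRCm38, plus strand) had 12.2, 19.4 and 16 in the controls and 63.5, 13.2 and 42.8 in the Rx-Dicer libraries. Rx-Dicer 1 and 3 lay far above the controls and Rx-Dicer 2 within them. The log2 fold change was 1.33 (SE 0.61, unadjusted p = 0.0297, adjusted p = 0.293), and without Rx-Dicer 2 it was 1.75 (adjusted p = 0.0288). Without Rx-Dicer 1 it was 0.82, the lowest of all settings, and received no adjusted p. In the settings that gave one, the adjusted p ran from 0.0288 to 0.753. The call without Rx-Dicer 2 was the only call of a member in any setting tried.

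Psmb9 (chr17:34181987-34187764 in GRCm38, minus strand), near Psmb8 in the major histocompatibility region, had 11, 16.3 and 13.2 in the controls and 21.4, 21.4 and 23.8 in the Rx-Dicer libraries. It was the 1 member with all Rx-Dicer values above all controls, at counts too low for the size to be resolved: the log2 fold change was 0.71 (SE 0.57, adjusted p = 0.706), with a 95% confidence interval of -0.40 to 1.83. Psmb10 had 282, 269.9 and 302 in the controls and 321, 222 and 257 in the Rx-Dicer libraries, overlapping between groups, at -0.09 (SE 0.20, adjusted p = 0.943).

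Markers of microglia and macrophages were high in the same libraries as Psmb8. The summed normalised counts of the 12 listed genes were 2451, 2071 and 2499 in the controls and 6975, 2390.2 and 4508 in the Rx-Dicer libraries. Of the 12, 2 were called higher, Cx3cr1 and Csf1r (1.75% of all genes were). At an unadjusted p under 0.05, 11 were higher (6.96% of all genes), and none was at 0 in any library. The groups overlapped for all 12, the called genes included. In Rx-Dicer 1 and 3, where Psmb8 was high, these markers were high too. In Rx-Dicer 2, where Psmb8 was not, they were at the control level. Psmb9 did not share this pattern, with 21.4 in Rx-Dicer 2 against at most 16.3 in the controls. The part of the markers in the values of Psmb8 and Psmb9 was not tested.

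**Figure D3:**
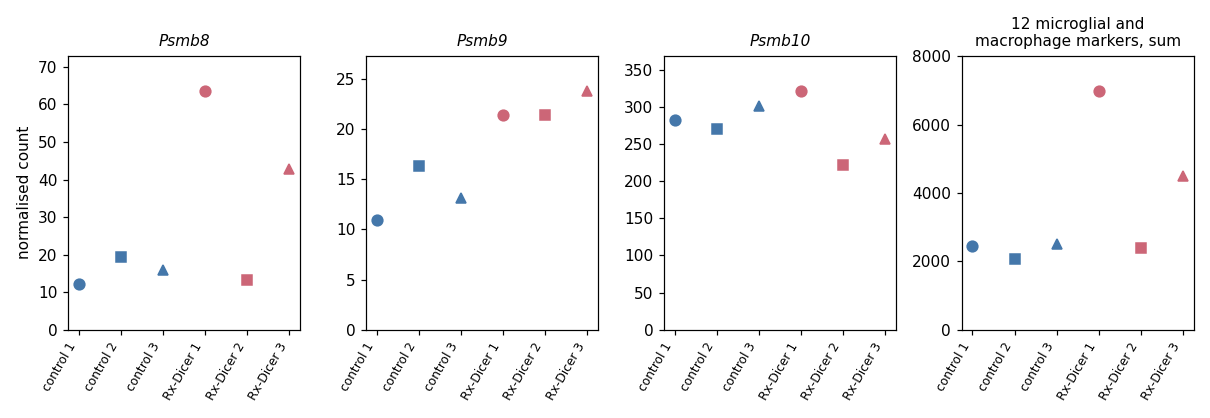
Normalised counts in each library (vertical axes start at 0; circles, squares and triangles mark replicates 1, 2 and 3) for Psmb8, Psmb9, Psmb10 and the sum of 12 microglial and macrophage markers. Psmb8 and the marker sum are high in Rx-Dicer 1 and 3 and within or near the control range in Rx-Dicer 2.

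The tissue-restricted core subunits had very low counts. Psma8, the alpha subunit of the testis, had 17.1, 18.3 and 12.2 in the controls and 20.6, 15.3 and 9.51 in the Rx-Dicer libraries (log2 fold change -0.06, SE 0.63, adjusted p = 0.991). Psmb11, the catalytic subunit of the thymic cortex, had 2.44, 4.07 and 1.88 in the controls and 2.57, 6.11 and 0.951 in the Rx-Dicer libraries, and it received no adjusted p because its mean count fell below the independent filter.

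None of the 4 activator genes or the inhibitor gene was called. Psme1 and Psme2 form a ring-shaped cap that opens the core without ubiquitin. Psme1 had 2191, 1949 and 2009 in the controls and 1967, 1628 and 1917 in the Rx-Dicer libraries (log2 fold change -0.16, SE 0.13, adjusted p = 0.726). Psme2 had 1571, 1495 and 1730.3 in the controls and 1770.2, 1331 and 1689 in the Rx-Dicer libraries (log2 fold change -0.00, SE 0.15, adjusted p = 0.999), and reads from its close copy Psme2b may be divided between them. For both, Rx-Dicer 2 was the lowest library.

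Psme3, the nuclear cap, had 8565, 10123 and 8690.3 in the controls and 8522, 8135 and 9369 in the Rx-Dicer libraries, overlapping between groups (log2 fold change -0.07, SE 0.12, adjusted p = 0.916). Psme4, a large cap used in chromatin and in DNA repair, had 8599, 9906 and 8499 in the controls and 8912, 9879.6 and 10167 in the Rx-Dicer libraries. It had the highest log2 fold change of the 43 broadly expressed members, 0.10 (SE 0.12, adjusted p = 0.854), and Rx-Dicer 2 was not low for it. Psmf1, described as an inhibitor of the core in vitro, had 1698, 1723 and 1563 in the controls and 1589, 1503 and 1731 in the Rx-Dicer libraries (log2 fold change -0.05, SE 0.12, adjusted p = 0.957).

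The 25 members without sample values above had log2 fold changes of -0.24 to 0.01 and adjusted p-values of at least 0.444.

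Levels were compared between genes per length, as TPM (counts divided by transcript length and scaled to the library), computed on 1 representative transcript a gene. The highest broadly expressed member was Psmb6 with a mean of 524 TPM over the 6 libraries, and the lowest was Psmg3 with 17.5. Psma7 followed Psmb6 with 468, Psmb7 with 428 and Psmb4 with 357. Psmb6 was 561 ± 55.4 TPM (SD, n = 3) in controls and 487 ± 99.6 in Rx-Dicer, so its order with Psma7, at 501 ± 16.3 and 434 ± 43.5, lay within the spread. Within the core the ratio of highest to lowest was 5.48, although each core particle holds the subunits in equal numbers. With the length of all exons in place of the representative transcript, that ratio was 3.25, so its size depends on the length taken.

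By role, the first 26 places in the order belonged to genes of the core and the 19S particle, and the last 5 to the 3 base chaperones, Psmf1 and Psmg3. In the controls the 14 core genes summed to 3980.3, 4222 and 4190.4 TPM, and the 17 genes of the 19S particle to 3297, 3539 and 3458. The Rx-Dicer libraries had 4139.9, 3443 and 3672 for the core and 3403, 3322 and 3123 for the 19S particle. Core sums in Rx-Dicer 2 and 3 were below all controls, and that of Rx-Dicer 1 was among them. The 19S sum was lowest in Rx-Dicer 3. With the length of all exons in place of the representative transcript, the highest member was Psmc5, so the order of single genes depends on the transcript taken.

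**Figure D4:**
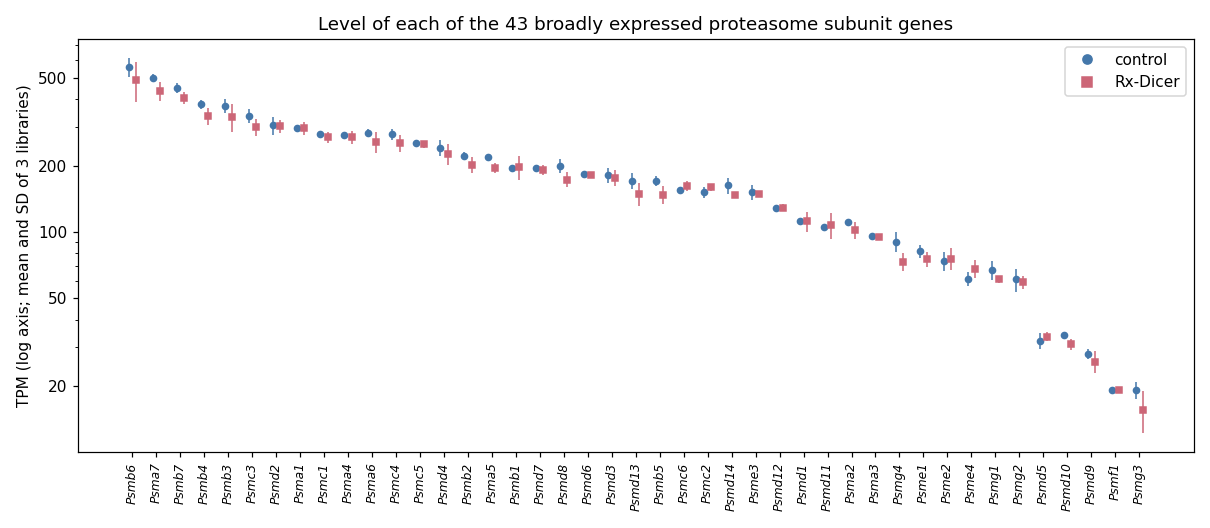
TPM of the 43 broadly expressed members (log axis; mean and SD of 3 libraries; circles, control; squares, Rx-Dicer), ordered by mean level. Levels fall from 524 for Psmb6 to 17.5 for Psmg3, and the groups lie close together along the whole order.

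Genes of the pathway outside the naming rule were examined in 6 lists: subunits and chaperones with other names, transcription factors of proteasome genes, bound deubiquitinases and ligases, shuttle factors, ubiquitin and its activating enzymes, and antigen presentation. Of 47 listed, 46 were found and 43 tested; 1 was called higher and 1 lower, against 1.75% and 1.18% of all genes. The call on the higher side was 1 of 11 tested genes of antigen presentation, and that on the lower side 1 of 6 ubiquitin and activating enzyme genes. None was called among the 5 other subunits and chaperones, the 4 transcription genes, the 6 bound enzymes and the 11 shuttle genes.

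The subunit Sem1 of the lid had 6713, 7651 and 7802 in the controls and 6012, 4606 and 5746 in the Rx-Dicer libraries, with all Rx-Dicer values below the controls. It missed the threshold narrowly (log2 fold change -0.44, SE 0.14, adjusted p = 0.0525). Pomp, a chaperone that matures the core, had 5667, 5385 and 5431 in the controls and 4446, 4037 and 4889 in the Rx-Dicer libraries, also apart (log2 fold change -0.30, SE 0.12, adjusted p = 0.167). Nfe2l1, the factor that raises proteasome transcription when degradation is impaired, had 6715, 7342 and 7169 in the controls and 8039.6, 7499.6 and 7573 in the Rx-Dicer libraries. The groups lay apart on the higher side by a small margin (log2 fold change 0.12, SE 0.11, adjusted p = 0.745).

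The gene called lower was Rps27a, which encodes ubiquitin fused to a ribosomal protein. By its name Rps27a is also counted among the cytosolic ribosomal protein genes described below, 11 of which were called lower. It had the lowest log2 fold change of that group, whose median was -0.32. It had 21458, 28759 and 27595 in the controls and 20506, 11493 and 15679 in the Rx-Dicer libraries (log2 fold change -0.71, SE 0.20, adjusted p = 0.0195). Rps27a has processed copies in the genome that can share its reads, and the call was lost with edgeR, with the first file of each sample alone, and without control 2, control 3, Rx-Dicer 2 or Rx-Dicer 3 (adjusted p from 2.55e-04 to 0.598 over the settings). The polyubiquitin gene Ubb, with 36579.8, 37821 and 37620.5 in the controls and 35891, 28791 and 32407 in the Rx-Dicer libraries, was not called (log2 fold change -0.21, SE 0.12, adjusted p = 0.480).

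The gene called higher was Irf1, a transcription factor of the interferon response that acts on Psmb8 and Psmb9 in other settings. It had 147, 170.1 and 180.4 in the controls and 389, 355 and 472 in the Rx-Dicer libraries, with the groups well apart (log2 fold change 1.29, SE 0.20, adjusted p = 7.77e-08); edgeR gave an adjusted p of 0.0719, the highest of a range from 7.33e-09 over the settings. Unlike Psmb8, Irf1 was high in Rx-Dicer 2 as well. The interferon regulatory factor word described above was not found in the searched promoters of Psmb8 and Psmb9, and binding was not measured. Tap1, the peptide transporter beside Psmb9, had 85.5, 78.4 and 96.8 in the controls and 173, 67.2 and 113 in the Rx-Dicer libraries (log2 fold change 0.44, SE 0.35, adjusted p = 0.703), high in Rx-Dicer 1 and not in Rx-Dicer 2. Irf1 was the only one of the 11 tested genes of that list to be called.

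Other large complexes were set beside the proteasome, with no test between groups of genes. Of all genes tested, 1.18% were called lower and 1.75% higher. Cytosolic ribosomal protein genes had a median log2 fold change of -0.32 (94 tested, 11 called lower). The median was -0.22 for mitochondrial ribosomal protein genes (77 tested, 3 called lower). It was -0.33 for nuclear respiratory chain genes (76 tested, 15 called lower and 1 higher). The calls in these groups are by DESeq2, where edgeR called only 8 genes in all. In Rx-Dicer 2 the means of these groups were -0.53, -0.38 and -0.54, against -0.28 for the 43 proteasome genes. The proteasome thus lay between these groups and the median of all genes. In each of the 4 groups the means of all 3 Rx-Dicer libraries were below those of all controls, but for the proteasome Rx-Dicer 3 and control 1 were both at -0.04 after rounding. Median transcript length was 1440 bases for the 43 members and 1316 for mitochondrial ribosomal protein genes. It was 886.5 for cytosolic ribosomal protein genes and 787 for respiratory chain genes, against 3070.0 for tested coding genes.

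**Figure D5:**
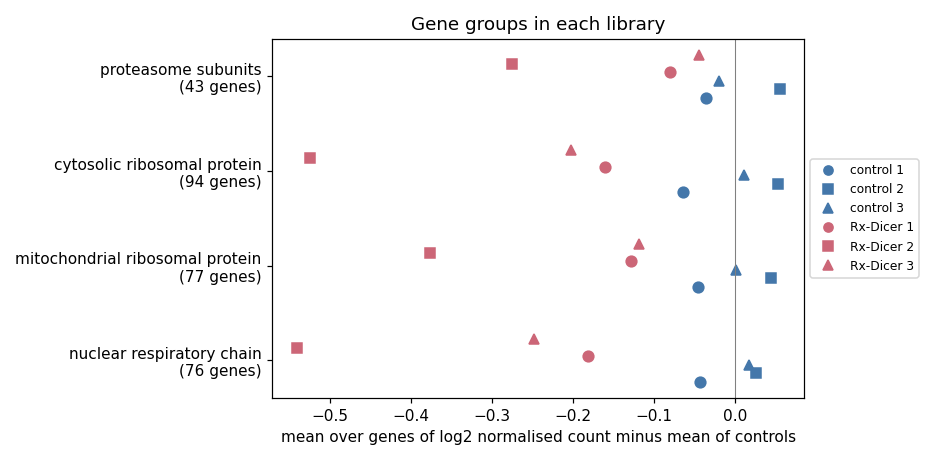
Mean over the genes of each group of log2 normalised count minus the mean of controls (horizontal axis), by library (colour, genotype; marker shape, replicate). Rx-Dicer 2 is the leftmost library in each group, at -0.28 for proteasome genes and down to -0.54 for the others.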

How the data were processed

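RNA-seq was performed on rostral telencephalic primordium of E11.5 mouse embryos, 3 control (DicerF/F, labelled WT) and 3 Rx-Dicer samples. Per the labels, libraries were made with a directional kit and sequenced as paired ends, and the submitters' processing notes name Trim Galore 0.6.5, HISAT2, HTSeq 0.12.4 and the build GRCm38.p6. Per the study's methods, HTSeq counted reads in union mode on the reverse strand against Ensembl genes. The authors deposited 12 tables of raw read counts per gene, 2 files a sample, with no normalization. The labels do not say what the 2 files are. Between them counts differed little more than sampling allows (chi-square per degree of freedom 1.13 to 1.52, against 22.5 to 32.6 between samples of a group), so they were summed and counted as 1 sample. The 5 rows without a gene (24.9 to 31.0% of reads) were left out.

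From the summed counts, log2 fold changes (Rx-Dicer over control) and p-values came from DESeq2 1.42.0 in R 4.3.3 (Wald test, median-of-ratios size factors, no shrinkage, Benjamini-Hochberg with independent filtering), as in the study. Calls needed an adjusted p under 0.05 and a change over 1.25-fold. Intervals are 95%, and errors are SE unless stated. TPM used 1 representative transcript a gene (GENCODE M21, to which 55230 of 55471 identifiers matched). On simulated counts with known changes, DESeq2 and edgeR 4.0.16 recovered the folds, and DESeq2 made more wrong calls than its threshold implies when genes kept their own fitted dispersions. With dispersions set to the fitted trend, its wrong calls were closer to that threshold. Calls by DESeq2 that edgeR did not make are therefore less certain. Depth was 34471501 to 48373468 counts per sample, and limits of 3 counts cover counting error only. The study describes the controls as littermates and the samples as independent biological replicates, and which samples shared a litter is not given in the sources used here.

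The members and the lists of pathway genes and markers were chosen with earlier results of these data known. Described with values were members called, the 5 higher and 5 lower with the smallest unadjusted p, the member with the highest level in each subcomplex, all inducible or restricted core subunits, the activators, the inhibitor and the catalytic subunits. From the pathway lists, Sem1, Pomp, Ubb and Tap1 were named after their values were seen. A listed gene and a promoter motif are not reported here. Deviations of same-numbered samples from their group means correlated at 0.27, -0.06 and -0.29, so the numbers showed no consistent pairing. With 3 samples a group these correlations cannot exclude that same-numbered samples shared a litter. Alternatives were edgeR's quasi-likelihood test with and without a filter, TMM and total-count scaling, a low-count filter (10 counts in 3 samples), no independent filtering, protein-coding genes alone, either file alone, a replicate block, a length and GC correction, an adjusted p of 0.1, no minimum change and leaving out each sample. The use of exon-union length for levels was chosen after seeing the data.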

Additional observations from a re-analysis of the deposited data

How the results depend on the processing

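None of the members was called in any alternative tried except without Rx-Dicer replicate 2, where the count was 1 (Psmb8), so leaving out 1 library gave 0 to 1. With 1 library left out, members lower at an unadjusted p under 0.05 numbered 0 to 12, members higher 0 to 1, members with groups apart 9 to 20 on the lower side and 0 to 3 on the higher side, and pathway genes called lower 0 to 2. Fewer libraries must be apart in such a comparison, so a rise in that count follows in part from its construction. Members lower at an unadjusted p under 0.05, 2 in the reported fit, were 6 with edgeR without a filter, 8 with protein-coding genes alone, 4 with the second file of each sample and 4 with the length and GC correction. Members higher were 0 with protein-coding genes alone and with the second file. Members apart on the higher side were 0 with total-count scaling, the low-count filter, the first file and the second file, where 44 or 45 members had an adjusted p. Pathway genes called lower were 2 at an adjusted p under 0.1, with the low-count filter, with protein-coding genes alone and with the length and GC correction, and 0 with both forms of edgeR, where called higher was 0 with the filter.

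The replicate block, although the numbers showed no consistent pairing, gave 0 members lower and 0 higher at an unadjusted p under 0.05. It gave 314 calls over all genes against 502. The replicate block with length and GC correction gave 1 lower, 0 higher and 0 pathway genes called lower, with Dicer1 at -0.43 and called. Not every sample's deviation correlated best with that of its own number. Leaving out 1 library put Dicer1 between -0.47 and -0.16, and it was called only without Rx-Dicer replicate 2.

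The length and GC correction moved the median of all genes by about -0.05 and left the members 0.07 below it. No scaling turned the median of the members. The log2 fold changes that turned sign were all near 0 or of low counts. Psme2 was 0.0067 with edgeR, 0.013 with total-count scaling, 0.0029 with the low-count filter, 0.015 with the first file, 0.066 with the length and GC correction and 0.062 with that and the block. Psmc2 was -0.017 with the second file, -0.039 with the correction and -0.040 with the block added. Psmd5 was -0.103 and -0.101, and Psme4 -0.041 and -0.036, under the same corrections. Psmb11 was -0.0046 with the second file, -0.039 with the block and -0.084 with block and correction. Leaving out 1 library turned Psmd5 (-0.041 to 0.067), Psmd2 (-0.133 to 0.015), Psme3 (-0.132 to 0.0083), Psma8 (-0.359 to 0.184), Psmc2 (-0.026 to 0.078), Psmb11 (-0.651 to 0.622), Psme2 (-0.084 to 0.118), Psmb10 (-0.251 to 0.027) and Psmf1 (-0.103 to 0.0038). The cause of these turns was not tested. With 3 libraries a group, changes of under 0.32 on the log2 scale in single subunits were mostly below what the depth and spread could resolve.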
